A study of Mus musculus with 12 samples.

Results

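Transcripts of glutamate receptors and their auxiliary subunits were measured in the striatum of mice with a one-sided dopamine lesion that had received L-DOPA. The list held 33 gene names: 4 AMPA, 5 kainate and 7 NMDA receptor subunits, 1 delta receptor, 7 metabotropic receptors and 9 auxiliary subunits. Members were taken as the rows of the transcript table that carry 1 of these symbols, which gave 271 transcripts of 32 genes out of 189660 transcripts with 52169 gene symbols. Each gene was represented by its transcript with the highest mean counts per 1000000 counts of the library (CPM). Cacng8 had no row under its symbol. It was found through its Ensembl transcript identifier and is given apart from the counts of members.

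The animals were female C57BL/6J mice whose medial forebrain bundle was injected on 1 side with the toxin 6-OHDA, which destroys dopamine neurons, after desipramine, which protects noradrenaline neurons. They recovered for 2 weeks. All 4 groups then received L-DOPA, the precursor of dopamine, at 10 mg/kg with 7.5 mg/kg benserazide, which limits its conversion outside the brain. Mice of the acute groups were injected on 1 day and mice of the chronic groups on 9 days, and tissue was taken 1 h after the last injection. Libraries came from the lesioned or the unlesioned striatum, with 3 libraries in each of the groups acute unlesioned, acute lesioned, chronic unlesioned and chronic lesioned. The unlesioned striata had therefore seen the drug as well, and no library of an untreated or saline-treated mouse was analysed here. Acute and chronic groups were separate animals. Lesion and L-DOPA cannot be told apart in the lesioned striatum, because none of these libraries measured the lesion without the drug.

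Glutamate is the main excitatory transmitter of the inputs that the striatum receives from cortex and thalamus. AMPA receptors carry most of the fast current, NMDA receptors admit calcium when glutamate and depolarization coincide, and kainate receptors act both before and after the synapse. Metabotropic receptors signal through G proteins. Auxiliary subunits are membrane proteins that set the gating and traffic of the channels. TARPs (the Cacng genes) and cornichons (Cnih2) accompany AMPA receptors, and Neto1 and Neto2 accompany kainate receptors. An AMPA receptor without the GluA2 subunit (Gria2) is permeable to calcium.

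The 12 libraries held between 87695043 and 173116525 counts over all transcripts, with a read entering each of the overlapping transcripts. The tissue label was checked on 10 markers of spiny neurons, the projection neurons of the striatum, whose summed level was 1850 to 2760 CPM in every library. After acute L-DOPA 6 of these 10 were lower in lesioned striatum, with sums of 2040 to 2200 against 2320 to 2760 CPM that did not overlap and a median log2 fold change of -0.36. Of 12 markers of cortical glutamatergic neurons, the 10 measured besides Nptx1 summed to between 9.08 and 50.2 CPM, unevenly across libraries. Slc17a7, the vesicular transporter of cortical terminals and cells, stood at 23.3, 10.6 and 10.1 CPM in the acute unlesioned libraries and at 12.2, 1.64 and 1.25 CPM in the acute lesioned ones. After chronic L-DOPA it stood at 18.2, 3.98 and 32.6 CPM on the unlesioned and at 17.8, 1.34 and 1.29 CPM on the lesioned side. Of all libraries, only chronic unlesioned replicate 2 held the choroid plexus transcript Ttr at a high level, with 449 CPM against at most 1.51 CPM elsewhere. In chronic lesioned against chronic unlesioned striatum, D1 spiny neuron markers summed to 305 to 355 against 183 to 224 CPM (2 of 7 higher, 2 lower), D2 markers to 805 to 1070 against 513 to 549 CPM (2 of 6 higher, 1 lower) and interneuron markers to 321 to 361 against 196 to 242 CPM (4 of 10 higher, 2 lower), none of these sums overlapping. Markers of other cells also differed between groups. Of 11 oligodendrocyte markers 9 were lower in chronic than in acute lesioned striatum (summed level 1190 to 2150 against 2180 to 3570 CPM), as were 7 of 9 microglia markers (73.1 to 93.4 against 114 to 135 CPM). After acute L-DOPA 6 of 7 D1 spiny neuron markers were lower and 1 higher in lesioned striatum (144 to 157 against 193 to 202 CPM). Of 6 D2 markers 5 were higher and 1 lower (881 to 953 against 519 to 611 CPM), and 4 of 9 astrocyte markers were higher (357 to 424 against 302 to 320 CPM). The part of these shifts in the results below was not tested, apart from fits with a cortical marker score as a covariate, once over all 11 cortical markers measured and once, chosen after seeing the data, without Nptx1. In such bulk tissue, fewer cells of a type and less RNA per cell cannot be told apart.

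The members differed widely in level, and the order of close neighbours changed between groups. Per kilobase of transcript and averaged over the 12 libraries, Cnih2 was the most abundant at 34.6 CPM per kilobase, followed by Grin1, the obligatory NMDA subunit, at 21.4, Gria1 at 16.4, Gria2 at 15.3 and Grik5 at 13.4 CPM per kilobase. Among auxiliary subunits the next were Cacng7 at 12.5, Cacng3 at 8.96 and Cacng4 at 8.94 CPM per kilobase. In acute unlesioned libraries Gria2 (17 to 18.2) was above Gria1 (14.4 to 15), and in chronic lesioned libraries Gria1 (18.2 to 22.3) was above Gria2 (11.2 to 13.7 CPM per kilobase). Cacng3 was above Cacng4 within every unlesioned library, with ranges that overlapped narrowly after acute L-DOPA, and below it within every lesioned library. Grm5, which couples to calcium release, led the metabotropic receptors at 6.58 CPM per kilobase. Low members were Grik1 at 0.164, Grin3b at 0.155 and Grm2 at 0.0927 CPM per kilobase. Grm6, a receptor known from retinal bipolar cells, held at most 2 counts in any library, which is below the floor of 3 counts, and was not tested. The other 31 members passed the filter on low counts in every comparison.

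After acute L-DOPA the change between lesioned and unlesioned striatum was mostly a fall. Of 31 members 11 fell and 1 rose (adjusted p under 0.05, edgeR), against 15.3% of 20402 genes called in either direction, 8.16% higher and 7.16% lower. The median log2 fold change was -0.14 over the members and 0.02 over all genes tested. In 15 members the 3 lesioned and the 3 unlesioned libraries did not overlap, against 35% of all genes. Metabotropic receptors made up the largest group of falls with 4 of 6, followed by auxiliary subunits with 3 of 8 lower and 1 higher. Of AMPA, NMDA and kainate subunits 1 each fell (of 4, 7 and 5), and the only delta receptor in the list, Grid1, fell as well.

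The largest acute falls were those of Cacng3 and Neto2. Cacng3 encodes the TARP γ-3 and lies at chr7:129815258-129912907 (mm9, + strand). It was measured at 18.6, 17.4 and 20 CPM in the unlesioned and at 10.3, 11.5 and 11.5 CPM in the lesioned libraries. All lesioned libraries lay below all unlesioned ones. The log2 fold change was -0.75 ± 0.07 (SE, adjusted p = 2.96e-05), a 1.68-fold fall. Neto2 (chr8:88160487-88214908, mm9, - strand) was at 34.2, 32.9 and 40.4 CPM on the unlesioned side and at 21.5, 22.4 and 21.8 CPM on the lesioned side, again without overlap. It fell by 0.70 on the log2 scale (SE 0.07, adjusted p = 8.33e-05). All 9 Neto2 transcripts and both Cacng3 transcripts were called in this direction, though transcripts of 1 gene share reads. For Neto2 a pair of transcripts without shared exons covered the 5′ and the 3′ part of the gene, and these gave log2 fold changes of -0.69 ± 0.07 and -0.71 ± 0.08 (SE).

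Cacng7, which encodes the TARP γ-7, was the single member that rose. Its levels were 25.3, 24.9 and 27.1 CPM in the acute unlesioned and 34, 31.5 and 34.1 CPM in the acute lesioned libraries. The log2 fold change was 0.37 ± 0.06 (SE, adjusted p = 0.00207), and the groups did not overlap. The TARP Cacng4 fell by 0.34 (SE 0.07, adjusted p = 0.00893), so TARPs were called in both directions. Of the 4 Cacng4 transcripts tested 1 was called, and their log2 fold changes ranged from -0.34 to -0.22. Stargazin, Cacng2, had a log2 fold change of -0.22 that was not called (adjusted p = 0.0591), and it was called in 6 of 16 alternative fits, among them the replicate block (0.0102).

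Among metabotropic receptors, Grm5 fell by 0.43 on the log2 scale (SE 0.06, adjusted p = 0.000749), from 64.9 ± 4 to 48 ± 0.86 CPM (SD, n = 3). The receptors that inhibit cyclic AMP synthesis followed. Grm8 fell by 0.56 (SE 0.12, adjusted p = 0.0122), Grm4 by 0.32 (SE 0.08, adjusted p = 0.0256) and Grm7 by 0.30 (SE 0.06, adjusted p = 0.00889). The ends of Grm7 differed, with a 5′ transcript at -0.11 ± 0.09 (adjusted p = 0.483) and a 3′ transcript at -0.69 ± 0.09 (SE, adjusted p = 0.000531), and 3 of its 5 tested transcripts were called lower. Grm3, also of this inhibitory kind and abundant in astrocytes, was at 18.7 ± 1.6 CPM in lesioned and 19 ± 1 CPM in unlesioned striatum (SD, n = 3, adjusted p = 0.883). The Grm8 call was lost without acute lesioned replicate 2 or acute unlesioned replicate 1 (adjusted p = 0.0515 and 0.0523), and the Grm4 call without acute lesioned replicate 1 or 2 or acute unlesioned replicate 3 (0.066 to 0.0899).

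Of the channel subunits, Grin2b fell by 0.57 (SE 0.11, adjusted p = 0.00521), Gria2 by 0.24 (SE 0.06, adjusted p = 0.0213), Grik2 by 0.23 (SE 0.06, adjusted p = 0.0291) and Grid1 by 0.27 (SE 0.07, adjusted p = 0.0216). Gria1 stood at 82.1 ± 2.1 CPM in lesioned and 82.8 ± 2 CPM in unlesioned striatum (SD, n = 3), with a log2 fold change of -0.01 and an interval of 2 SE on either side from -0.12 to 0.10. Grin2b was called in each of 6 fits without 1 library (adjusted p = 0.000325 to 0.0306). The smaller calls of Gria2, Grid1 and Grik2 depended on single libraries. Gria2 was lost without acute lesioned replicate 3 or acute unlesioned replicate 1 or 2 (adjusted p = 0.0507 to 0.0927), Grid1 without acute lesioned replicate 1 or acute unlesioned replicate 3 (0.0616 and 0.0828), and Grik2 in 5 of 6 such fits, being kept only without acute lesioned replicate 1. With the score over all cortical markers as a covariate Grik2 was lost (adjusted p = 0.0599), while Gria2 and Grm8 were still called (0.0473 and 0.0489). With the score without Nptx1, Gria2, Grik2 and Grm8 were lost (0.0599, 0.0757 and 0.0716).

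**Figure D1:**
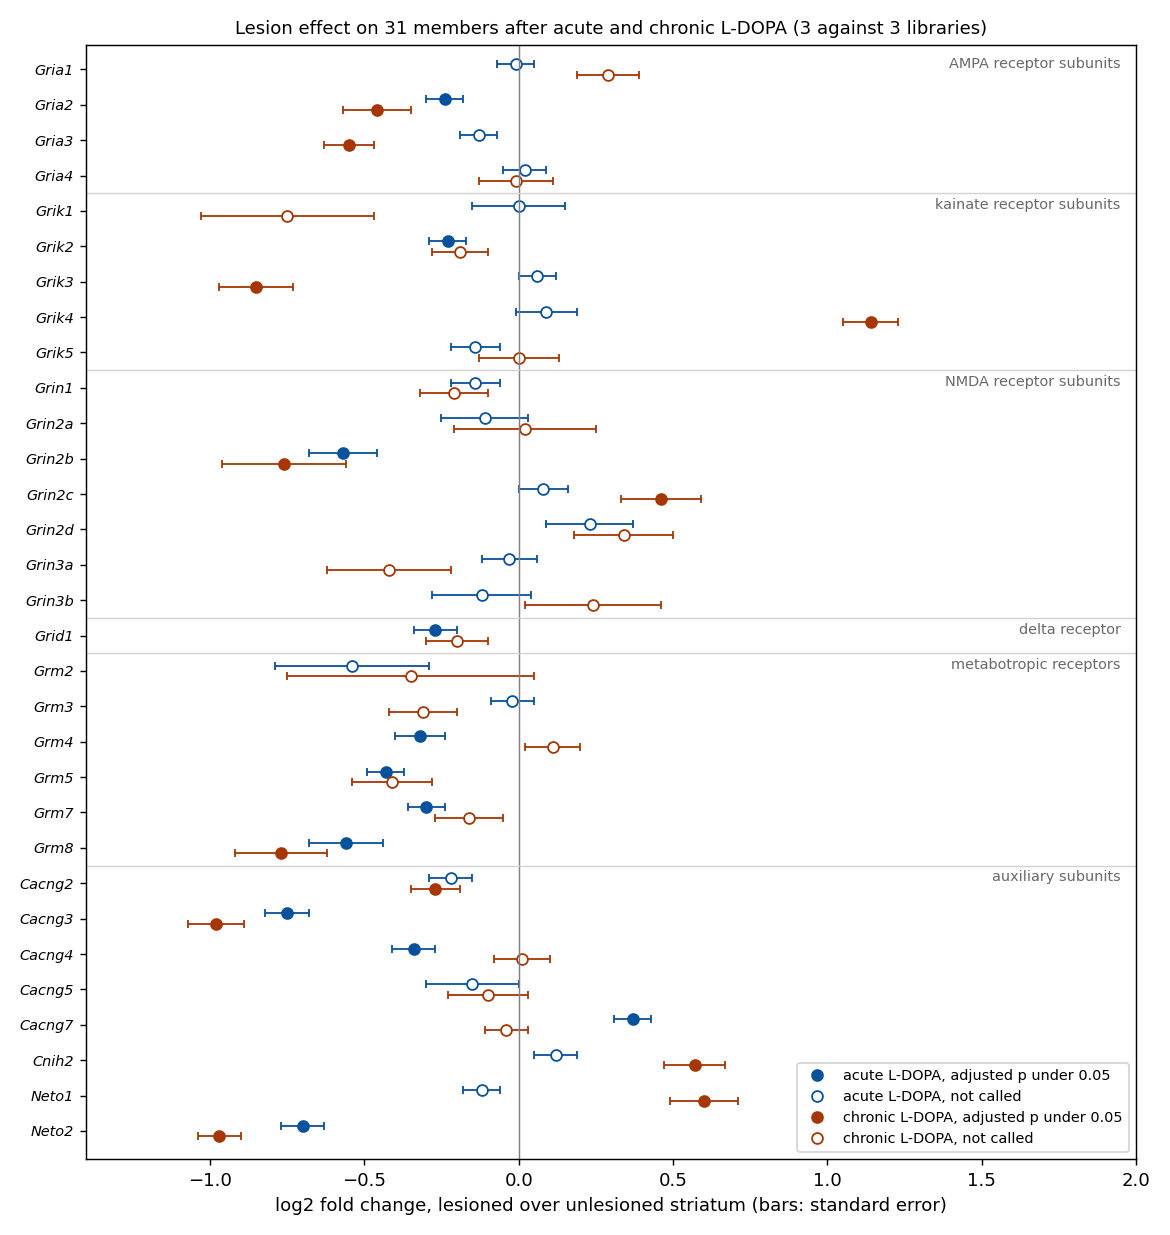
Log2 fold change of lesioned over unlesioned striatum for 31 members, ordered by family, after acute (blue) and chronic (red-brown) L-DOPA. Points are the fitted values of 3 against 3 libraries, bars the standard error, and filled points have an adjusted p under 0.05. Cacng3 and Neto2 lie far left in both treatments, whereas Grik3, Grik4 and Neto1 have filled points for chronic L-DOPA and open ones for acute L-DOPA.

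After chronic L-DOPA, members were called in both directions. Of 31 members 4 rose and 8 fell, against 13.7% of 19742 genes called in either direction, 8.46% higher and 5.2% lower. The members' median log2 fold change was -0.19, and that of all genes -0.01. In 14 members the libraries of both sides did not overlap, against 32.3% of genes. The replicate number was taken to pair the libraries of both sides. The series design counts as many mice as libraries, which goes against pairing. With the number as a block 6 members rose and 13 fell, against 24.2% of all genes called in either direction in that fit. All results with the replicate block rest on this assumed pairing.

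Grik4 had the largest change of the members tested. Among kainate receptor genes and their Neto partners, Grik4 and Neto1 rose and Grik3 and Neto2 fell. Grik4, which encodes the high-affinity subunit GluK4, lies at chr9:42326218-42752576 (mm9, - strand). It was at 2.1, 2.3 and 2.32 CPM in the chronic unlesioned and at 4.75, 5.18 and 4.93 CPM in the chronic lesioned libraries. Every lesioned library was above every unlesioned one, at 179 to 560 counts per library over all groups. Grik4 rose 2.21-fold (log2 1.14 ± 0.09 SE, adjusted p = 2.57e-05), and all of its 7 transcripts were called. In the acute groups it stood at 2.12, 1.99 and 1.72 CPM unlesioned and 2.15, 2.07 and 1.98 CPM lesioned, so chronic lesioned striatum was the group that stood apart.

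Grik3, which encodes the low-affinity subunit GluK3, went the other way. At chr4:125167944-125391417 (mm9, + strand), it was at 25.9, 24.3 and 28.1 CPM in the chronic unlesioned and at 16.3, 15.6 and 11.6 CPM in the chronic lesioned libraries. The groups did not overlap. It fell 1.80-fold (log2 -0.85 ± 0.12 SE, adjusted p = 0.00147) with all 6 transcripts called lower. The acute libraries lay between 22.3 and 25.2 CPM on both sides. Grik1, at 0.641 ± 0.17 CPM unlesioned and 0.38 ± 0.13 CPM lesioned (SD, n = 3), had a log2 fold change of -0.75 ± 0.28 (SE) that was not called (adjusted p = 0.112), and it was called in 4 of 16 alternative fits, among them the replicate block (0.0154). Grik5, the most abundant kainate gene per length, had a log2 fold change of -0.00 ± 0.13 (SE).

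Neto1 and Neto2 moved in opposite directions. Neto1 was at 30.6, 24.1 and 29.4 CPM in the chronic unlesioned and at 47.6, 37.3 and 42.5 CPM in the chronic lesioned libraries, without overlap. It rose 1.51-fold (log2 0.60 ± 0.11 SE, adjusted p = 0.0071). Neto2 was at 27.8, 27.4 and 27.4 CPM unlesioned and at 14.5, 13.5 and 14 CPM lesioned, and fell 1.96-fold (log2 -0.97 ± 0.07 SE, adjusted p = 1.23e-05). As a share of the summed Neto level per kilobase, Neto2 held 39.9% ± 2.9 in chronic unlesioned and 18.3% ± 1.3 in chronic lesioned striatum (SD, n = 3). In the acute groups its share was 48% ± 2.4 unlesioned and 38.1% ± 1.2 lesioned.

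**Figure D2:**
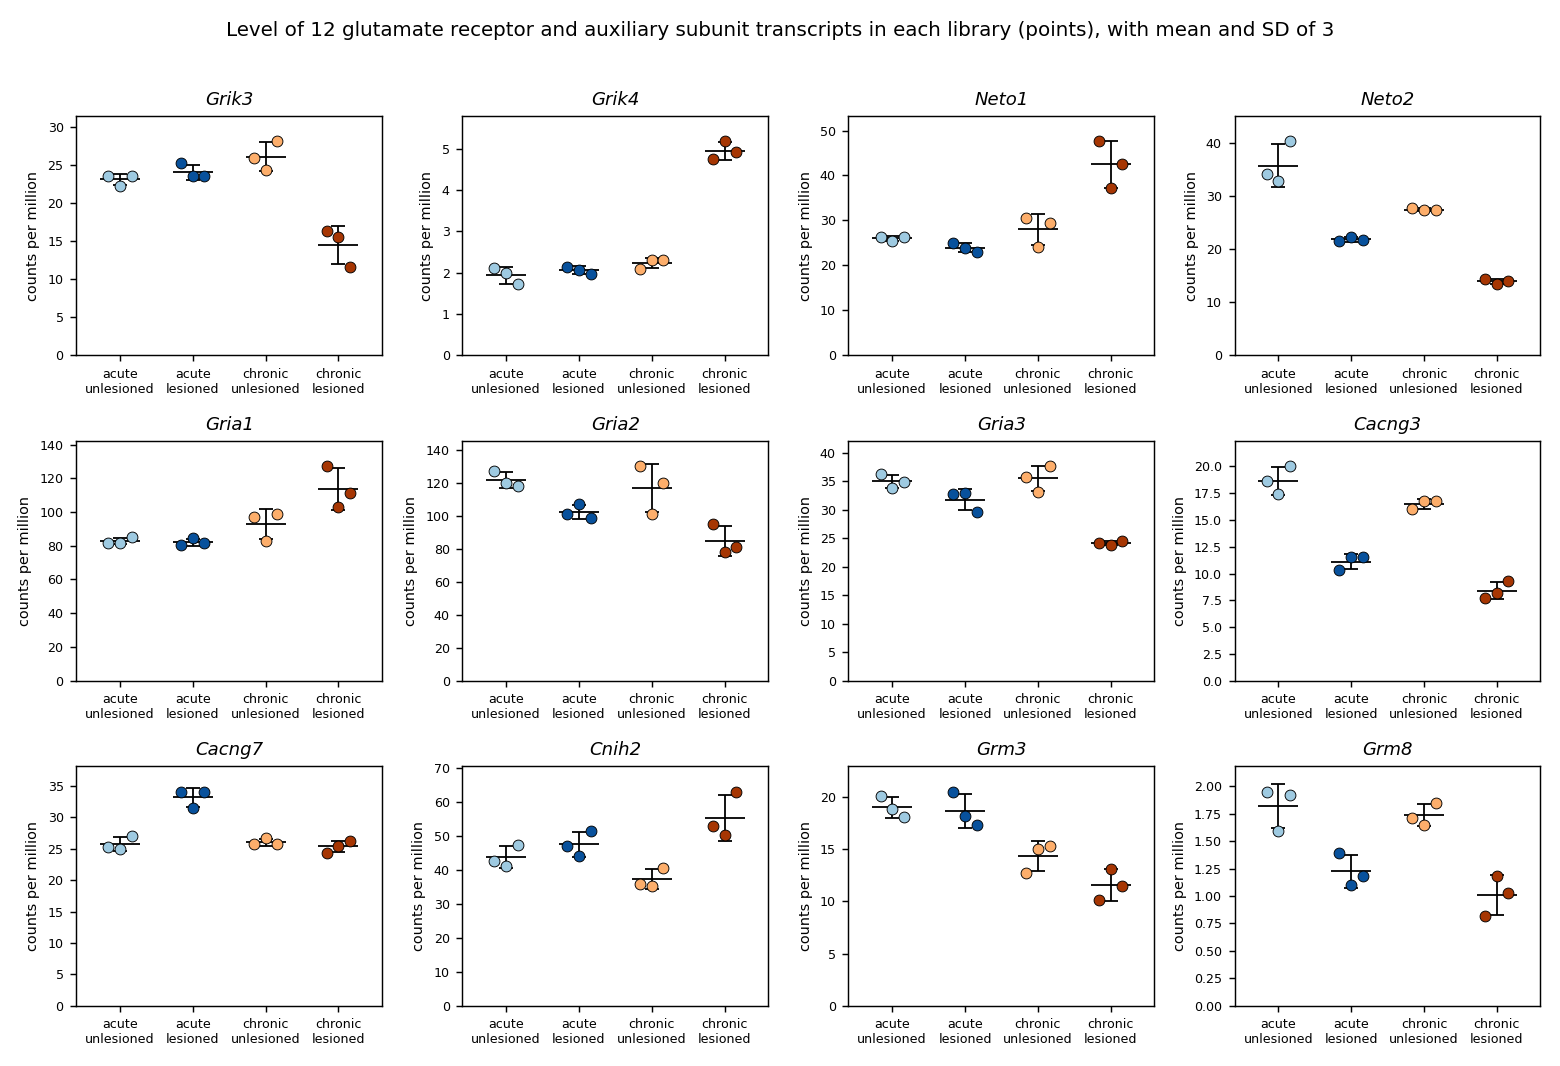
CPM of 12 members in each of the 12 libraries, with axes from 0. Points are libraries, the horizontal line the mean and the bar the SD of 3. Chronic lesioned libraries do not overlap the other 9 in Grik3, Grik4, Neto1, Neto2, Gria1, Gria2, Gria3 and Cacng3, while Cacng7 is high only in the acute lesioned group.

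AMPA receptor subunits moved unequally. Gria3 was at 35.8, 33.2 and 37.6 CPM in the chronic unlesioned and at 24.1, 23.9 and 24.5 CPM in the chronic lesioned libraries, and fell by 0.55 on the log2 scale (SE 0.08, adjusted p = 0.00102). Gria2 was at 130, 101 and 120 CPM unlesioned and 95, 78 and 81.4 CPM lesioned, and fell by 0.46 (SE 0.11, adjusted p = 0.0215). The libraries of both genes did not overlap. The Gria2 call was lost without chronic lesioned replicate 2 or 3 or chronic unlesioned replicate 1 or 3 (adjusted p = 0.0532 to 0.0985) and with the cortical score without Nptx1 as a covariate (log2 -0.30, adjusted p = 0.106), but not with the score over all cortical markers (log2 -0.36, adjusted p = 0.0285). Gria1 was at 97, 82.9 and 99 CPM unlesioned and at 127, 103 and 111 CPM lesioned. Its log2 fold change of 0.29 ± 0.10 (SE) was not called (adjusted p = 0.0962). It was called in 6 of 16 alternative fits, among them the replicate block (adjusted p = 0.0065) and the cortical scores as covariates (log2 0.38, adjusted p = 0.0137 over all markers and log2 0.44, adjusted p = 0.0157 without Nptx1). Gria4 had a log2 fold change of -0.01 ± 0.12 (SE).

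The ratio of Gria1 to Gria2 per kilobase does not depend on library size. It was 1.64, 1.63 and 1.67 in the chronic lesioned libraries and 0.919, 1.01 and 1.02 in the chronic unlesioned ones. In the acute libraries it was 0.98, 0.969 and 1.01 lesioned and 0.794, 0.835 and 0.886 unlesioned. The log2 ratio differed between sides by 0.75 after chronic and by 0.24 after acute L-DOPA, with no overlap in either (exact two-sided permutation p = 0.1 each, the smallest that 3 against 3 libraries allow). Gria1 accounted for 51.3% ± 1.3 of the summed AMPA subunit level per kilobase in chronic lesioned striatum and for 35.6% ± 1.1 to 38.9% ± 0.72 in the other groups (SD, n = 3).

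**Figure D3:**
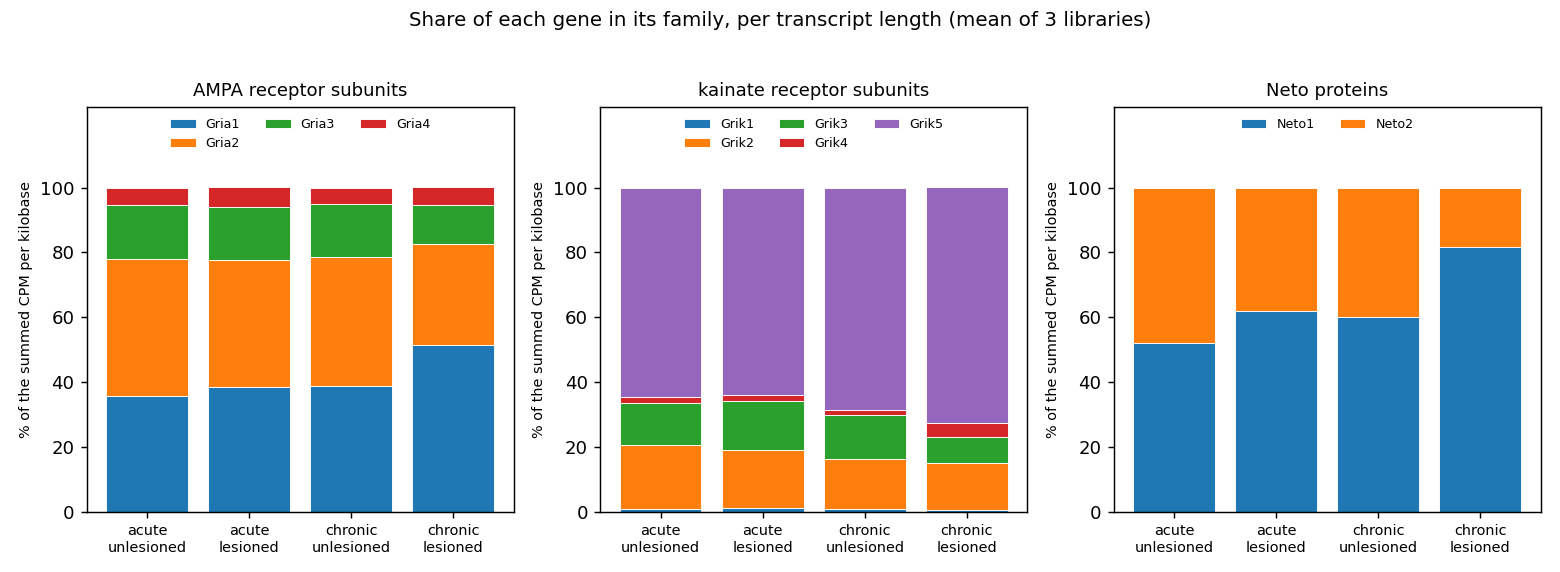
Share of each gene in the summed CPM per kilobase of its family, as the mean of 3 libraries in each group, for AMPA subunits, kainate subunits and Neto proteins. In chronic lesioned striatum Gria1 makes up 51.3% of the AMPA bar, Grik4 4.2% of the kainate bar and Neto2 18.3% of the Neto bar.

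Among AMPA auxiliary subunits, Cacng3 fell after chronic L-DOPA as well. Its levels were 16, 16.8 and 16.8 CPM unlesioned and 7.71, 8.19 and 9.27 CPM lesioned (log2 -0.98 ± 0.09 SE, adjusted p = 4.47e-05), without overlap. Cnih2 was at 36, 35.4 and 40.6 CPM unlesioned and at 53.1, 50.2 and 63.1 CPM lesioned, and rose by 0.57 on the log2 scale (SE 0.10, adjusted p = 0.00466). Cacng2, the founding TARP stargazin, fell by 0.27 (SE 0.08, adjusted p = 0.0478), a call lost without any single library (adjusted p = 0.0554 to 0.165) and with either cortical score as a covariate (0.0632 and 0.0979). Of its 10 tested transcripts 3 were called lower, and a 5′ and a 3′ transcript had log2 fold changes of -0.45 (adjusted p = 0.00936) and -0.13 (adjusted p = 0.42). Cacng4 and Cacng7, which were called after acute L-DOPA, had chronic log2 fold changes of 0.01 and -0.04. The ratio of Cacng3 to Cacng8 per kilobase was 0.855, 0.973 and 0.936 in chronic lesioned and 2.05, 2.15 and 1.81 in chronic unlesioned libraries. Cacng8 itself had log2 fold changes of -0.06 ± 0.11 acute and 0.14 ± 0.11 chronic (SE).

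Of NMDA subunits, Grin2b fell and Grin2c rose. Grin2b, common in forebrain synapses, was at 9.28, 8.7 and 15.3 CPM in the chronic unlesioned and at 7.66, 6.34 and 5.71 CPM in the chronic lesioned libraries. It fell by 0.76 on the log2 scale (SE 0.20, adjusted p = 0.0323). The highest Grin2b library, chronic unlesioned replicate 3, was also the highest in Slc17a7. Without that library the log2 fold change was -0.45 (adjusted p = 0.0704), with the score over all cortical markers as a covariate it was -0.54 (adjusted p = 0.0441), and with the score without Nptx1 it was -0.42 (adjusted p = 0.17). The call was also lost without chronic lesioned replicate 2 or 3 (adjusted p = 0.0572 and 0.14). Grin2c rose by 0.46 (SE 0.13, adjusted p = 0.0397), from 8.55 ± 1 to 11.8 ± 2 CPM (SD, n = 3). It was lost without chronic lesioned replicate 3 or chronic unlesioned replicate 1 or 2 (adjusted p = 0.0681 to 0.141) and with either cortical score as a covariate (0.0833 over all markers, 0.162 without Nptx1).

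**Figure D4:**
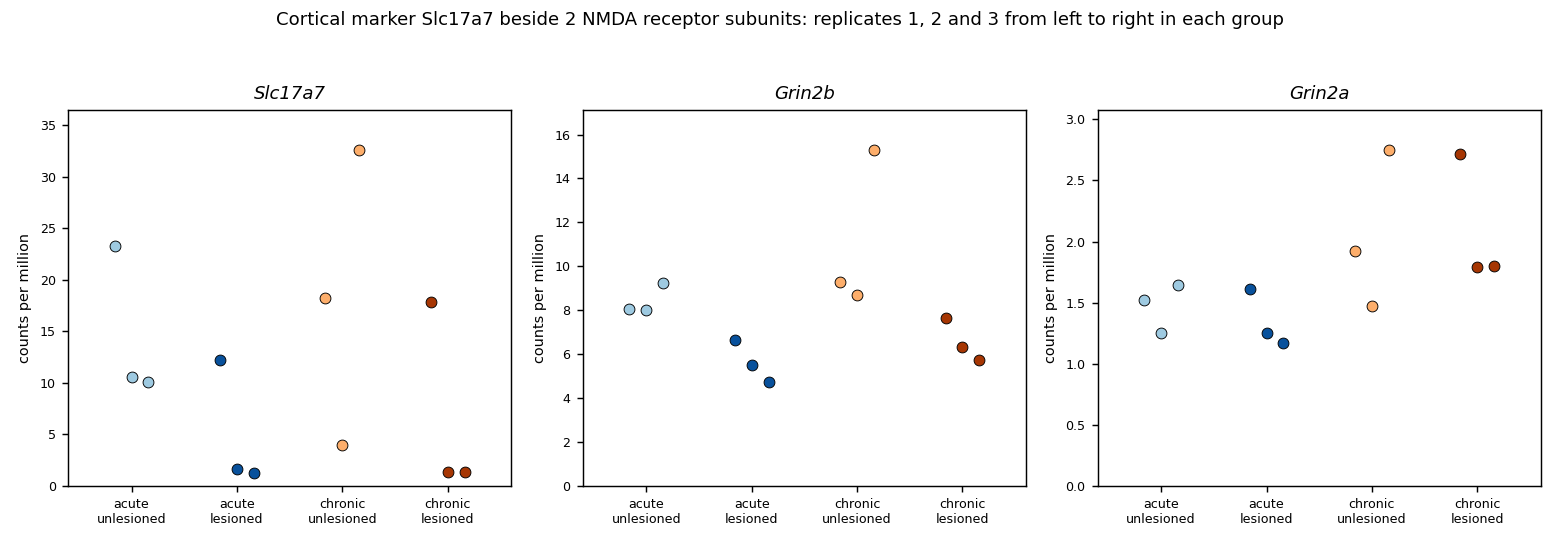
CPM of the cortical marker Slc17a7 and of the NMDA subunits Grin2b and Grin2a in each library, with axes from 0 and replicates 1 to 3 from left to right. Chronic unlesioned replicate 3 is the highest library in all 3 panels, at 32.6, 15.3 and 2.75 CPM.

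The ratio of Grin2a to Grin2b per kilobase was 0.376, 0.354 and 0.388 in acute lesioned and 0.294, 0.244 and 0.277 in acute unlesioned libraries. After chronic L-DOPA it was 0.554, 0.439 and 0.49 lesioned and 0.322, 0.263 and 0.279 unlesioned. Lesioned libraries were higher in both treatments without overlap (log2 differences 0.46 and 0.78, exact permutation p = 0.1 each). Grin1 had log2 fold changes of -0.14 ± 0.08 acute and -0.21 ± 0.11 chronic (SE). On its opposite strand lies E130003G02Rik, with 29.3 CPM, and reads of the pair cannot be separated without strand information.

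Of 6 metabotropic receptors tested, Grm8 was called after chronic L-DOPA. Grm8 was at 1.71, 1.65 and 1.85 CPM unlesioned and at 0.82, 1.18 and 1.03 CPM lesioned, and fell by 0.77 on the log2 scale (SE 0.15, adjusted p = 0.00693). Of its 14 transcripts 12 were tested and 10 were called lower. Grm5 was at 55.9, 55.6 and 79.4 CPM unlesioned and at 47.5, 46.3 and 49.3 CPM lesioned, with a log2 fold change of -0.41 ± 0.13 (SE, adjusted p = 0.0665). Without chronic unlesioned replicate 3, the library highest in Slc17a7, it was -0.22, and with the cortical scores as covariates it was -0.33 over all markers and -0.29 without Nptx1 (adjusted p = 0.149 and 0.287). It was called in 6 of 16 alternative fits, among them the replicate block (0.00589). Grm3 had a log2 fold change of -0.31 ± 0.11 (SE), with an adjusted p of 0.106, and was called in 4 of 16, among them the block (0.00718). Grm4 and Grm7 had log2 fold changes of 0.11 and -0.16.

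The sequences upstream of 3 members that changed after chronic L-DOPA are shown, Grik4 and Cnih2, which rose, and Grik3, which fell. Each line gives the 250 bases before the start of the measured transcript in mm9, 5′ to 3′ on the gene's strand. Capitals mark GC boxes (GGGCGG or CCGCCC). For all 3 the window shares sequence with the RefSeq promoter (GRCm38.p6).
Grik4, upstream at chr9:42752577-42752826, - strand: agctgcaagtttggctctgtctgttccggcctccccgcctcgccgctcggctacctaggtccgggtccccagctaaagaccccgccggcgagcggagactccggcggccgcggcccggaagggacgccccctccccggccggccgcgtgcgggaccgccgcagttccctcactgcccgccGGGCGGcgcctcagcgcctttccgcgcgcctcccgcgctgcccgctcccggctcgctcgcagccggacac
Grik3, upstream at chr4:125167694-125167943, + strand: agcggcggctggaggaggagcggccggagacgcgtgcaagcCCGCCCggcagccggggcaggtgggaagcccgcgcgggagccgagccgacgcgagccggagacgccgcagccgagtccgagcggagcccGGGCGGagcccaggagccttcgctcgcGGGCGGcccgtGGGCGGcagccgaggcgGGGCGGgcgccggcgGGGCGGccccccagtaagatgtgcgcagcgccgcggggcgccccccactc
Cnih2, upstream at chr19:5098522-5098771, - strand: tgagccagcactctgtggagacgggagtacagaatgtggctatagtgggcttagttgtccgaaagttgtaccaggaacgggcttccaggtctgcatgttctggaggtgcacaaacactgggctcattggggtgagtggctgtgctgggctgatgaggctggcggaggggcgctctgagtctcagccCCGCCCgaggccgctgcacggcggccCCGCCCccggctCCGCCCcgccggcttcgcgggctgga

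Upstream of Grik3 there were 6 GC boxes in a window of 82% GC, upstream of Grik4 1 in 77.2% GC and upstream of Cnih2 3 in 65.6% GC. Of 30 members whose window was read, 16 (53.3%) held a GC box, against 46.2% of 20899 genes. Several of these windows, among them those of Gria1, Gria3, Grin2b, Grm5, Cacng4 and Neto1, were not found to share sequence with the RefSeq promoter. Cacng7 was tested for expression but had no window. The full cyclic AMP response element TGACGTCA was found in 0 of the 30 windows and in 2.18% of all genes. Its core TGACG (or CGTCA) was found upstream of 2 members, Grin1 and Grin2b (6.67% against 21.8%), and the AP-1 site TGACTCA (or TGAGTCA) upstream of 1, Cacng5 (3.33% against 3.14%). Both strands were searched, and a full element also holds the core on each strand. These matches describe letters in these windows only.

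Whether the lesion effect itself changed between acute and chronic L-DOPA was tested as an interaction over all 12 libraries. In this test 2 members were called higher and 3 lower, against 5.1% of 20682 genes in either direction, 3.53% higher and 1.56% lower. Grik4 changed by 1.06 on the log2 scale (SE 0.13, adjusted p = 0.000216), from a lesion effect of 0.09 acute to 1.14 chronic. Grik3 changed by -0.90 (SE 0.15, adjusted p = 0.00185), from 0.06 to -0.85. Neto1 changed by 0.72 (SE 0.13, adjusted p = 0.00592), from -0.12 to 0.60. These 3 were called in each of 12 fits that left out 1 library.

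Gria3 changed by -0.42 (SE 0.09, adjusted p = 0.0192) and Cacng7 by -0.41 (SE 0.09, adjusted p = 0.0154). Gria3 was measured at 36.2, 33.8 and 34.9 CPM in acute unlesioned and 32.8, 33 and 29.6 CPM in acute lesioned libraries, which did not overlap although its acute effect of -0.13 was not called (adjusted p = 0.183). Cacng7 was at 25.7, 26.7 and 25.8 CPM in chronic unlesioned and 24.4, 25.4 and 26.3 CPM in chronic lesioned libraries, which overlapped. The Gria3 call was lost without acute lesioned replicate 1 or 2, acute unlesioned replicate 2 or 3 or chronic unlesioned replicate 3 (adjusted p = 0.0511 to 0.069), and the Cacng7 call without acute unlesioned replicate 1 or 2 (0.0502 and 0.0577). For Neto2 and Cacng3, which fell in both treatments, the change was -0.27 ± 0.11 (SE, adjusted p = 0.182) and -0.22 ± 0.11 (adjusted p = 0.311). With the replicate block 7 members were called higher and 4 lower, against 13.4% of all genes in that fit. The block added Gria1 (0.30, adjusted p = 0.0289), Grin2c (0.39, 0.0101), Grm4 (0.43, 0.00281), Cacng4 (0.35, 0.0184) and Cnih2 (0.45, 0.00156) on the higher side and Grm3 (-0.29, 0.0376) on the lower side.

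**Figure D5:**
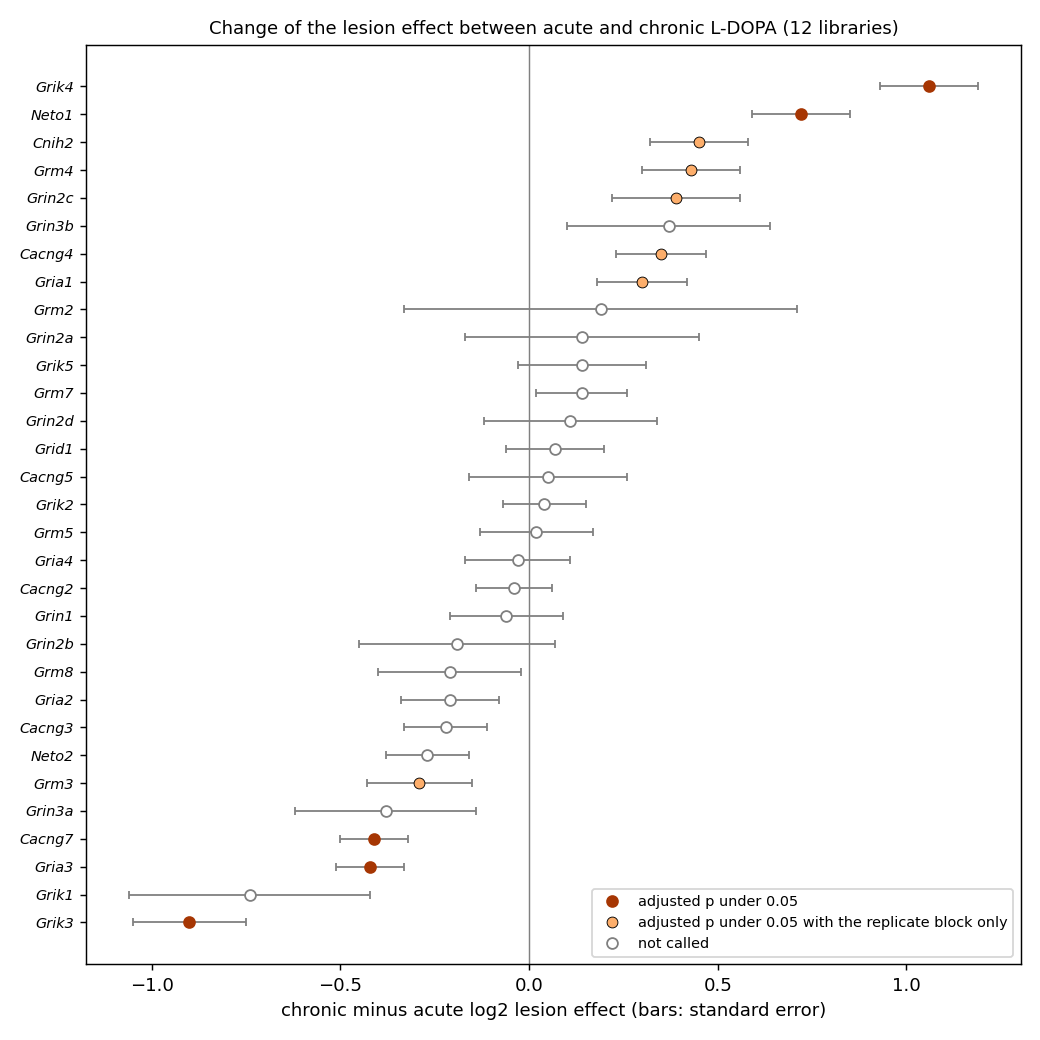
Chronic minus acute log2 lesion effect of 31 members over 12 libraries, sorted, with standard errors. Dark points have an adjusted p under 0.05, light filled points only with the replicate block, and open points in neither fit. Grik4 and Neto1 lie at the top and Grik3 at the bottom.

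Lesioned striatum was also compared directly between chronic and acute L-DOPA. These groups are the lesioned groups of the comparisons above, so the values are not independent of them. Of 31 members 5 were higher and 8 lower after chronic L-DOPA, against 25.6% of 19790 genes, 12.5% higher and 13.1% lower. The median log2 fold change was -0.01 for the members and -0.02 for all genes. In 13 members the libraries did not overlap, against 42.1% of genes. Grik4 was 2.40-fold higher (log2 1.26 ± 0.09 SE, adjusted p = 9.36e-06), Neto1 1.77-fold (0.83 ± 0.09, adjusted p = 0.000197) and Gria1 1.38-fold (0.47 ± 0.09, adjusted p = 0.00364). Lower were Grik3 by 0.73 (SE 0.12, adjusted p = 0.00155), Neto2 by 0.65 (SE 0.07, adjusted p = 0.000159), Gria3 by 0.40 (SE 0.07, adjusted p = 0.0037), Cacng3 by 0.40 (SE 0.09, adjusted p = 0.0102) and Cacng7 by 0.39 (SE 0.07, adjusted p = 0.00418).

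Grm3 was also lower after chronic L-DOPA. It was at 20.5, 18.2 and 17.3 CPM in acute lesioned and at 10.1, 13.1 and 11.5 CPM in chronic lesioned libraries, and was lower by 0.69 on the log2 scale (SE 0.10, adjusted p = 0.00116). In unlesioned striatum it was at 20.1, 18.8 and 18.1 CPM after acute and at 12.7, 15 and 15.3 CPM after chronic L-DOPA, lower by 0.41 (SE 0.08, adjusted p = 0.0335). The groups did not overlap on either side. Of 9 astrocyte markers 3 were lower and 1 higher in this comparison of lesioned striatum (median log2 fold change -0.25) and 2 were lower in unlesioned striatum (median -0.08), and their part in the Grm3 values was not tested.

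Further calls between the lesioned groups were weaker. Grik1 was at 0.69, 0.694 and 0.68 CPM after acute and at 0.33, 0.527 and 0.283 CPM after chronic L-DOPA, from 29 to 125 counts per library over all groups. It was lower by 0.85 on the log2 scale (SE 0.23, adjusted p = 0.0215), and called in 2 of 6 fits without 1 library (those without acute lesioned replicate 3 or chronic lesioned replicate 2). Grin2a was at 1.61, 1.25 and 1.17 CPM after acute and 2.72, 1.79 and 1.8 CPM after chronic L-DOPA, without overlap, and higher by 0.63 (SE 0.18, adjusted p = 0.0315). The Grin2a call was lost without chronic lesioned replicate 1, the library with the most Slc17a7 among the lesioned ones (log2 0.41). It was also lost without acute lesioned replicate 2 or 3 (adjusted p = 0.0976 to 0.123 over these 3 fits). With the cortical scores as covariates Grin2a was still called (log2 0.56, adjusted p = 0.00934 over all markers and log2 0.66, adjusted p = 0.00408 without Nptx1). Grik5 was higher by 0.37 (SE 0.11, adjusted p = 0.0393) with overlapping libraries, and Gria2 lower by 0.27 (SE 0.09, adjusted p = 0.0466). Grik5 was lost in 4 of 6 and Gria2 in 5 of 6 fits without 1 library (adjusted p up to 0.14 and 0.174), and Grik5 also with either cortical score as a covariate (0.062 over all markers, 0.0597 without Nptx1). Gria2 was called with the score over all cortical markers (0.0414) and not with the score without Nptx1 (0.0504). Cacng3 was lost without acute lesioned replicate 2 (adjusted p = 0.0505).

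In unlesioned striatum few members differed between chronic and acute L-DOPA. Of 31 members 0 were higher and 3 lower, against 3.07% of 20290 genes, 1.07% higher and 1.99% lower. Besides Grm3, Neto2 was lower by 0.38 (SE 0.08, adjusted p = 0.0362) and Grin3b by 0.87 (SE 0.20, adjusted p = 0.048). Grin3b was at 0.57, 0.691 and 0.697 CPM after acute and at 0.341, 0.451 and 0.282 CPM after chronic L-DOPA. It overlaps ORF61, a gene of 23.2 CPM on the other strand, so its reads are uncertain. All 3 calls were kept only without chronic unlesioned replicate 2, the library with Ttr, and lost without any 1 of the other 5 libraries (adjusted p = 0.0711 to 0.164). No overlap between the groups was seen in 9 members, against 26.4% of genes.

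Members called in none of the 5 tests were Gria4, Grin1, Grin2d, Grin3a, Grm2 and Cacng5. Their log2 fold changes between lesioned and unlesioned striatum ranged from -0.54 (Grm2, acute) to 0.34 (Grin2d, chronic). With the replicate block, Grin1 (-0.21, adjusted p = 0.0247), Grin2d (0.35, adjusted p = 0.0338) and Grin3a (-0.43, adjusted p = 0.0267) were called after chronic L-DOPA. After acute L-DOPA Grin1 was called in 4 of 16 alternative fits, among them the cortical scores as covariates (-0.26 over all markers and -0.28 without Nptx1, adjusted p = 0.0337 each) and the removal of a GC and length trend (-0.24, adjusted p = 0.02). Grm2, at 14 to 74 counts per library, was the least precise, with a standard error of 0.40 in the chronic comparison.

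Genes that act at the same synapse were counted in 3 further lists. Of 40 scaffold and signalling genes, 3 rose and 11 fell after acute and 5 rose and 8 fell after chronic L-DOPA (median log2 fold change -0.04 and -0.06). Over all genes 8.16% rose and 7.16% fell after acute and 8.46% rose and 5.2% fell after chronic L-DOPA, which is the background for all 3 lists. The activity-regulated gene Arc rose by 3.31 and 3.74 on the log2 scale (SE 0.11 and 0.14, adjusted p = 1.35e-09 and 5.14e-08). Homer1, whose protein binds Grm5, rose by 1.57 and 2.53 (SE 0.08 and 0.11, adjusted p = 1.2e-07 and 1.38e-07). These values are of 1 Homer1 transcript, and the long and short forms of the gene were not compared. Lrrtm1, a postsynaptic adhesion gene, fell by 0.86 after acute L-DOPA (SE 0.06, adjusted p = 1.65e-06), and Ppp1r9b, the spine protein spinophilin, fell by 0.77 after chronic L-DOPA (SE 0.08, adjusted p = 0.000195).

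Of 15 further AMPA and kainate receptor partners 1 rose and 5 fell after acute and 4 rose and 3 fell after chronic L-DOPA (median -0.15 and 0.00). The neuronal pentraxins, secreted proteins that cluster AMPA receptors, were highest in chronic lesioned striatum. Nptx1 was at 124 CPM there and at 14.6 to 20 CPM in both acute groups, with a chronic log2 fold change of 2.97 ± 0.30 (SE, adjusted p = 0.000102). Nptx2 rose by 0.79 after acute and by 2.30 after chronic L-DOPA (SE 0.10 and 0.11, adjusted p = 0.00029 and 3.65e-07). Cnih3, the paralogue of Cnih2, rose by 0.65 (SE 0.18, adjusted p = 0.0402) and Shisa9, another AMPA receptor partner, fell by 0.54 (SE 0.08, adjusted p = 0.00119) after chronic L-DOPA. Of 17 genes of glutamate transport and metabolism, 3 rose and 1 fell after acute and 1 rose and 2 fell after chronic L-DOPA (median 0.09 and -0.00), where 13.7% of all genes were called in either direction. In the chronic comparison Slc17a8, the vesicular transporter VGLUT3 of cholinergic interneurons, fell by 0.92 (SE 0.12, adjusted p = 0.000681) and Got1, an aspartate aminotransferase, rose by 0.59 (SE 0.09, adjusted p = 0.00184).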

How the data were processed

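RNA of the punched striatum (3 punches of 2 mm) was sequenced in 12 libraries. The authors deposited raw read counts per transcript (mm9, Genomatix). They also deposited a normalized expression signal, scaled by transcript length and library size, which was not used here, and comparisons (DESeq p-values and fold changes) that were not used either, with 36 further per-sample columns. Strand use in counting is not given in the sources used here. Symbol-less transcripts (296, 0.0485% of counts) were left out. Counts were tested with edgeR 4.0.16 (quasi-likelihood, TMM, low counts filtered), with Benjamini-Hochberg adjustment over all transcripts and adjusted p under 0.05 as the call, in R 4.3.3 with limma 3.58.1. Alternatives included DESeq2 1.42.0. Scripts were tested on simulated data. Background shares use 1 transcript per gene. Exact permutation tests were two-sided. Same-numbered libraries of both sides deviated together (r = 0.385 to 0.472 acute, 0.159 to 0.572 chronic), so the numbers were taken as pairs. In the chronic set, however, lesioned replicate 1 and unlesioned replicate 3 also reached r = 0.153. The study describes the unlesioned side as each mouse's control, but the series design counts 12 mice for 12 libraries, which goes against pairing, and every result with the block rests on it. The members, lists and tests were chosen with earlier results of these data known. All members were accounted for. Members called past 1.5 fold or in the change of lesion effect were given by library, and up to 4 called genes per further list were named. Sequences were read from mm9, where 94.8% of 54051 shared Ensembl transcripts had the same coordinates. The sequence of 1 further window is not reported here. Figures were drawn with matplotlib 3.10.9. p-values measure the spread between 3 libraries a group.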

Additional observations from a re-analysis of the deposited data

Results flagged for a closer look

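The lesion effect differed between chronic and acute L-DOPA in 5 members, by the interaction term of the edgeR fit over 12 libraries. The chronic minus acute difference on the log2 scale was 1.06 for Grik4 and 0.72 for Neto1, where the chronic effect was the higher. It was -0.90 for Grik3, -0.42 for Gria3 and -0.41 for Cacng7, where the chronic effect was the lower. Acute and chronic libraries came from separate animals, so treatment and any difference between these sets of animals cannot be told apart.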

How the results depend on the processing

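With 1 library left out, the number of members called ranged from 9 to 11 in the acute comparison, 8 to 13 in the chronic one, 8 to 14 between lesioned groups (8 without acute lesioned replicate 2), 0 to 8 between unlesioned groups (8 without chronic unlesioned replicate 2 and 0 otherwise) and 3 to 7 for the change of the lesion effect (3 without acute unlesioned replicate 2). Of all genes these fits called 8.96% to 13.8% acute, 8.37% to 13.1% chronic and 14% to 31% between lesioned groups. Between unlesioned groups they called 12.1% without chronic unlesioned replicate 2 and 0.0679% to 0.766% otherwise. For the change they called 3.27% to 7.84%. At adjusted p under 0.01 the members called were 7 acute, 8 between lesioned groups, 0 between unlesioned groups and 3 for the change. The share of all genes at that threshold was not counted. The replicate block gave 19 chronic, 1 unlesioned and 11 for the change, against 24.2%, 2.63% and 13.4% of all genes. Between unlesioned groups the numbers pair no animals (same-number r = -0.0682, -0.0172 and 0.141), so that count says nothing of pairing. The same 3 counts came with the block after removal of a GC and length trend, against 32.1%, 3.16% and 18.6% of genes. Without the block that removal left 1 unlesioned, against 4.6% of genes. The GC and length trend and the cortical score without Nptx1 were chosen after seeing the data. The cause of these shifts was not tested. In the fit with that trend removed, which also tested fewer genes (14444 against 20336 acute, 14238 against 19742 chronic), the share of called genes that were higher went from 50.7% (1589 higher, 1546 lower) to 30.7% (1094 and 2472) in the acute and from 61.6% (1641 and 1022) to 51.1% (1272 and 1215) in the chronic comparison. Over the members' values called in the main comparison or with the block, taken across settings, 939 kept their direction and side of the threshold, 126 lost and 52 gained the call, and 0 reversed. Values called in neither were not counted, and some of these changed sign, such as chronic Grm2 (-0.35, up to 0.06). Grm2, at 14 to 74 counts per library, was among the members with the fewest counts.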
